A study of Mus musculus with 6 samples.

Results

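Genes of the tissue-resident macrophages of bone marrow were followed in sorted Kit+ CD11b+ marrow cells of MYB knockdown and wild type mice. The 10 genes were Vcam1, C1qa, C1qb, C1qc, Mrc1, Adgre1, Hmox1, Slc40a1, Axl and Mertk, of 19938 genes with a probe set of their own. They are known genes of such macrophages, and they were chosen by knowledge of their log2 differences in the same comparison. The comparison of the groups is therefore given for them as values only, without a p. Each had 1 probe set with exactly 1 symbol, so the rule of taking the brightest over all 6 arrays left no choice.

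The 6 samples were 3 MYB knockdown mice and 3 wild type mice, all C57BL6 males 4 weeks of age, with 1 Affymetrix array per mouse. Every sample was marrow sorted as Kit+, CD11b+ and low in lineage markers, the K11bL fraction, which the series title calls myeloproliferative. The labels do not say how MYB was lowered, in which cells, or which lineage markers were used. The values are log2 intensities, so a difference of 1 is a 2-fold change, and they are compared between mice and not between genes.

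Tissue-resident macrophages clear dying cells and aged red cells and settle in niches where blood is made. In the marrow some of them carry VCAM1 and sit at the centre of erythroblastic islands, where they take up expelled nuclei and recycle iron. C1q is the recognition unit of the classical complement pathway and is made largely by such macrophages. AXL and MERTK are receptor tyrosine kinases of the TAM family, which bind apoptotic cells through bridging ligands. The gate was set on Kit and CD11b, with no macrophage marker named. In such bulk RNA, fewer cells that express these genes and less RNA per cell cannot be told apart. Which of the sorted cells made the RNA, macrophages or others, was not measured.

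Myb was lower in every knockdown mouse, by 0.30 ± 0.06 (SE, 1.23-fold, adjusted p = 0.0196), which checks the labels. That call was lost without knockdown mouse 2 or any 1 wild type mouse (adjusted p between 0.0777 and 0.0963), after median centring (0.074) and without the trend of eBayes (0.0662). Array medians lay between 5.87 and 5.99. Pairs of wild type arrays correlated at 0.993 to 0.995. Knockdown mouse 3 stood apart from knockdown mice 1 and 2 (correlations of 0.977 and 0.984, against 0.994 between those mice). Kit, on which the cells were sorted, had a difference of -0.27 (adjusted p = 0.06), and Itgam, which encodes CD11b, had one of -0.39 (adjusted p = 0.202).

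Vcam1, the adhesion receptor that holds cells bearing the integrin VLA-4, had values of 7.11, 6.21 and 6.90 in knockdown mice 1 to 3, against 9.98, 9.83 and 9.43 in wild type mice. All 3 knockdown mice lay more than 2 log2 units under all wild type mice. The means were 6.74 ± 0.47 in knockdown and 9.74 ± 0.28 in wild type (SD, n = 3 each), a difference of -3.00 ± 0.24 (SE) or 8.02-fold. With any 1 mouse left out the difference lay between -3.19 and -2.74.

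Slc40a1, which encodes ferroportin, the iron exporter through which macrophages return iron to plasma, had the next largest difference. Its values were 7.70, 6.25 and 7.03 in the knockdown mice, against 9.54, 9.33 and 9.20 in the wild type mice. The difference was -2.37 ± 0.31 (SE, 5.15-fold), and again the groups were far apart. Hmox1, haem oxygenase 1, which opens the haem ring and frees its iron, behaved otherwise: 7.80, 6.69 and 7.42 in knockdown, against 7.80, 7.93 and 7.87 in wild type. Knockdown mouse 1 was at the wild type level, and the difference of -0.56 ± 0.24 (SE) was -0.26 without knockdown mouse 2.

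Mrc1, the mannose receptor CD206, which takes up glycoproteins, had values of 6.05, 4.94 and 5.25 in knockdown mice, against 7.12, 6.97 and 6.81 in wild type mice. The groups did not overlap, with a difference of -1.56 ± 0.25 (SE, 2.94-fold), and the value of knockdown mouse 2 was under the mean of 5.11 below which genes were left out of the test. Adgre1, the adhesion GPCR known as F4/80 that defines mouse macrophages, went the other way, with 8.74, 7.92 and 7.86 in knockdown, against 7.73, 7.76 and 7.81 in wild type. Its difference of 0.41 ± 0.22 (SE) rested on knockdown mouse 1 and was 0.12 without it.

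Axl had values of 7.42, 6.34 and 6.86 in the knockdown mice, against 7.82, 8.07 and 7.67 in the wild type mice, a difference of -0.98 ± 0.25 (SE, 1.97-fold). Mertk, the receptor most used by macrophages to engulf dying cells, had 6.19, 5.36 and 5.52 in knockdown, against 6.63, 6.50 and 6.27 in wild type, a difference of -0.78 ± 0.21 (SE, 1.71-fold). For both kinases each knockdown mouse was under each wild type mouse, with knockdown mouse 1 closest to them.

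**Figure D1:**
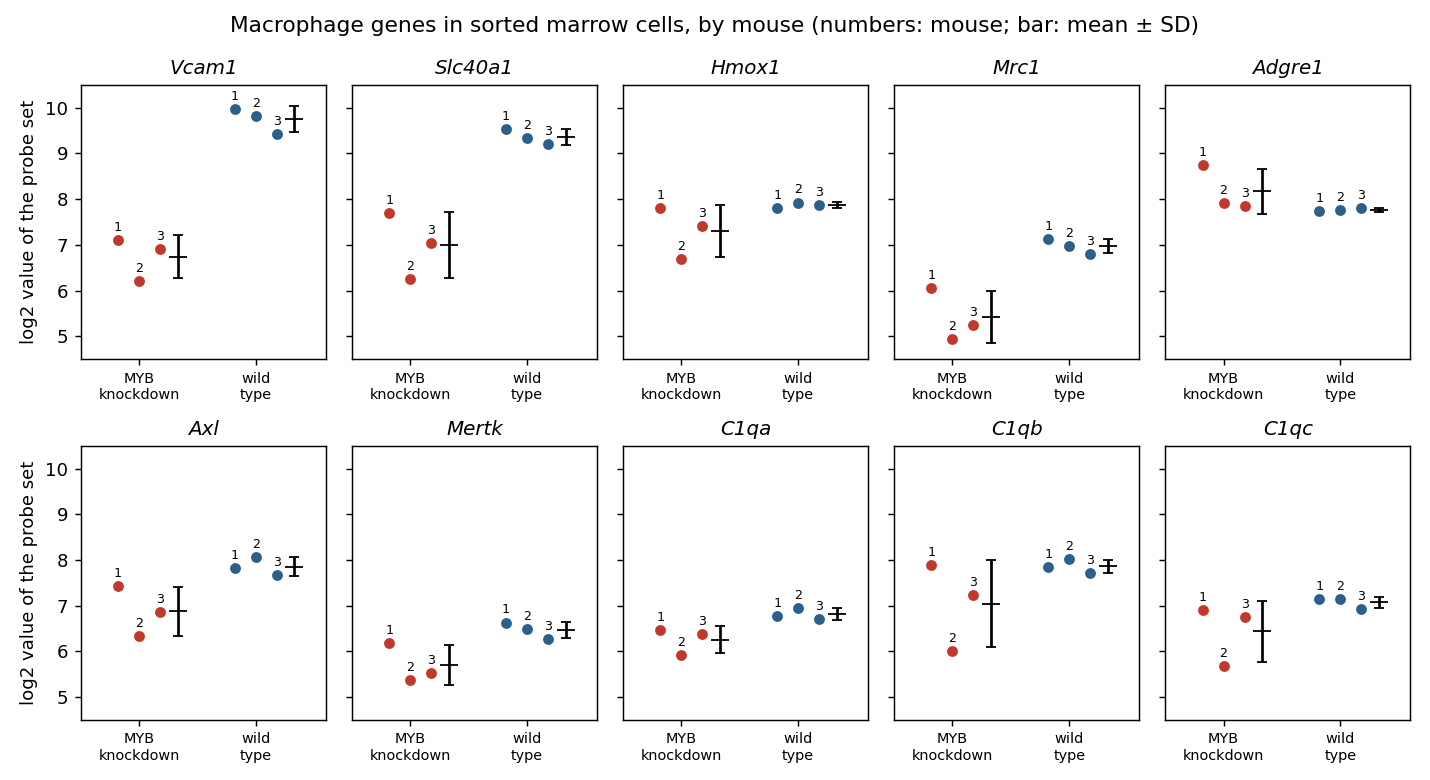
Log2 value of each gene in each of 3 MYB knockdown mice (red, left) and 3 wild type mice (blue, right), with mouse numbers above the points and the mean ± SD as a black bar. Vcam1, Slc40a1 and Mrc1 show well separated groups, C1qb overlaps, and Adgre1 is higher in knockdown, most of all in mouse 1 (8.74).

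The 3 C1q chains, which assemble into 1 molecule, differed less between the groups than Vcam1 or Slc40a1. C1qa had 6.46, 5.92 and 6.39 in knockdown, against 6.77, 6.95 and 6.70 in wild type (difference -0.55 ± 0.15, SE). C1qb had 7.88, 6.003 and 7.23 in knockdown, against 7.85, 8.01 and 7.71 in wild type (-0.82 ± 0.40). C1qc had 6.90, 5.67 and 6.75 in knockdown, against 7.13, 7.14 and 6.93 in wild type (-0.63 ± 0.29). In all chains knockdown mouse 2 was the lowest of the 6 mice, and C1qb of knockdown mouse 1 lay within the wild type range. Without knockdown mouse 2 the differences were -0.30 for C1qb and -0.24 for C1qc, and without knockdown mouse 1 that of C1qb was -1.24.

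C1qb, C1qc and C1qa lie next to each other in that order on chromosome 4, with no other annotated gene between them in GRCm38.p6. RefSeq promoters of that build, from 250 bases before to 50 after the start, were at hand for 5 of the 10 genes: C1qb, C1qc, Mrc1, Axl and Mertk. The sequences of C1qb, C1qc and Mrc1 are shown because each holds 1 match to AGGAAGT, a core bound by PU.1 and other ETS factors of myeloid cells. Each match is on the opposite strand and so reads ACTTCCT here, in capitals. It begins 53 bases before the start in C1qb (chr4:136886151-136886450, minus strand), 195 in C1qc (chr4:136892865-136893164, minus strand) and 211 in Mrc1 (chr2:14229164-14229463, plus strand).
C1qb: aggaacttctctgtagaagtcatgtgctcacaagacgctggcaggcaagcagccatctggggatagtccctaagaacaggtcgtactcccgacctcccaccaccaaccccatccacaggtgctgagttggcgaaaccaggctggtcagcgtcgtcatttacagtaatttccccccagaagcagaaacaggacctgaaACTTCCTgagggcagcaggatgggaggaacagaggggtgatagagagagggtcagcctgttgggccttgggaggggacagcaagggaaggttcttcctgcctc
C1qc: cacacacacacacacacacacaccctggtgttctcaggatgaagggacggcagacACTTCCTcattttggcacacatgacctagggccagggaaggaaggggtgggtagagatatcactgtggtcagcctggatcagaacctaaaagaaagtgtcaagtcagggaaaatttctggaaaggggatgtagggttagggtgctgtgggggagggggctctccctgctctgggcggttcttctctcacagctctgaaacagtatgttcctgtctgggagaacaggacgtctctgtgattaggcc
Mrc1: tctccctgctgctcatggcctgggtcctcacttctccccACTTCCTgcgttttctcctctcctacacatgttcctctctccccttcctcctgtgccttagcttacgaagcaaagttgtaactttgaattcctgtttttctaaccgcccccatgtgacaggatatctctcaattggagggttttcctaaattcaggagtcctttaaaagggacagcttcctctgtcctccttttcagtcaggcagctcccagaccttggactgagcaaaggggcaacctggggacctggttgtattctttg

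Searched on both strands, AGGAAGT was in 3 of these 5 promoters and in 9.35% of all 32851 promoters of that length. The MYB core AACNG was in 4 of the 5, all but Axl, and in 80.3% of all promoters, and it overlapped none of the AGGAAGT matches. TGCTGA, a core bound by MAF factors, was in 1, C1qb, and in 19.5% of all promoters. These motifs were picked after the sequences had been read, and a match is a string of letters and not a measured site.

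Of the 10 genes, 9 had a lower mean in knockdown, with a median difference of -0.80, against 0.02 over the 13956 genes tested. In 8 of them all knockdown values were under all wild type values, which held for 14.4% of genes tested. The limma fit over all genes placed 5 of them among the genes called lower at an adjusted p under 0.05 (Vcam1, Slc40a1, Mrc1, Axl and Mertk). Over all genes 5.48% were called lower, 6.12% higher and 11.6% either way. The choice of the genes used this comparison, so nothing is read from these counts. With knockdown mouse 1 left out the 5 became 8, with knockdown mouse 3 left out 6, and with knockdown mouse 2 or any wild type mouse left out 3. Vcam1, Slc40a1 and Mrc1 were in each of those sets.

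**Figure D2:**
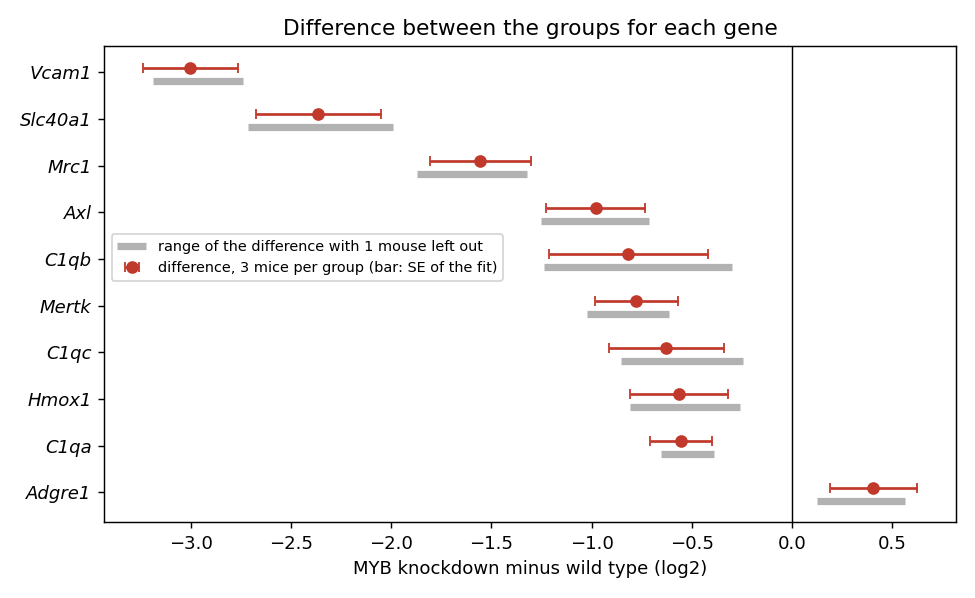
Difference of each gene, log2 units of MYB knockdown minus wild type, as a red point with the SE of the fit (3 mice per group), and below it in grey the range with 1 mouse left out. Vcam1 (-3.00) and Slc40a1 (-2.37) stand well below 0 throughout, while C1qb, C1qc, Hmox1 and Adgre1 come close to 0 when a knockdown mouse is left out.

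The difference of the group means leaves out how the mice of 1 group are ordered among themselves. In the knockdown group 9 of the 10 genes had the order mouse 1 above mouse 3 above mouse 2. Among all genes tested 5.36% had that order, and among the 3395 genes whose knockdown values spanned at least 0.5 it was 2.71%. Adgre1 was the exception, with mouse 3 (7.86) under mouse 2 (7.92), and after quantile normalization 10 of 10 had the order. This pattern was noticed in the data and is a description of 3 mice. Among wild type mice that sequence was seen in 0 of the 10 genes, and in 20.9% of all genes tested. Their orders were shared in part too. Mouse 1 above 2 above 3 was seen in 4 genes (11.3% of all genes tested). Mouse 2 above 1 above 3 was seen in 4 others (14% of all genes). Both have wild type mouse 3 lowest.

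The spread within the knockdown group was wide. The SD was between 0.29 (C1qa) and 0.95 (C1qb) among knockdown mice and between 0.04 (Adgre1) and 0.28 (Vcam1) among wild type mice. It was larger in knockdown for 10 of 10 genes, and for 79.9% of all genes tested. The median SD of the 10 genes was 0.55 in knockdown and 0.15 in wild type, against 0.17 and 0.08 over all genes.

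Other macrophage genes had this order less often than the 10, and 5.36% of all genes tested had it. Of the 22 tested genes of the lists of tissue macrophage surface genes and of macrophage transcription factors with the CSF1 axis, 4 had it (Cd5l, Sirpa, Cx3cr1 and Spic). Knockdown mouse 3 was the highest of its group in 16 of the 22 and knockdown mouse 1 in 6, and mouse 2 was the lowest in 12. Over all genes tested mouse 1 was highest in 31.9% and mouse 2 lowest in 19.5%. The 2 orders with mouse 3 highest held 14.2% (3, 1, 2) and 30.7% (3, 2, 1) of all genes. Siglec1 and Timd4, both listed for marrow or tissue macrophages, were lowest in mouse 1, with deviations of -0.25 and -0.14 from their group means. Timd4, with 4.81, 4.90 and 5.15 in knockdown, was close to the mean of 5.11 below which genes were left out of the test. Of the 4 genes with the order, Spic and Cd5l spanned more than 0.5, and they were picked for their values here. Spic, a transcription factor needed for iron-recycling macrophages of mice, had 6.41, 5.47 and 5.77 in knockdown mice 1 to 3, against 6.45, 6.21 and 6.19 in wild type. Its difference of -0.40 had an adjusted p of 0.31. Cd5l, a secreted macrophage protein, had 5.94, 4.56 and 5.05 in knockdown, against 5.56, 5.68 and 5.41 in wild type (adjusted p = 0.515). Its values in knockdown mice 2 and 3 were also under the mean of 5.11. Marker lists of other cells differed in how many genes had the order, which 5.36% of all genes tested had. Mean log2 levels in knockdown mice 1, 2 and 3 were 10.27, 9.46 and 9.60 for 9 neutrophil genes, of which 3 had the order and 4 were lowest in mouse 3. They were 6.87, 6.12 and 6.55 for 5 eosinophil genes, of which 3 had it. For 7 monocyte genes they were 8.33, 8.14 and 8.02, with mouse 3 lowest, and 2 genes had the order. For 7 erythroblast genes they were 7.20, 6.60 and 7.66, with mouse 3 highest, and 1 gene had it. The endothelial and stromal list had its lowest mean in mouse 1 (5.81, 5.95 and 5.88), and 0 of 12 tested genes had the order. What part these cells have in the spread of the macrophage genes was not tested.

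**Figure D3:**
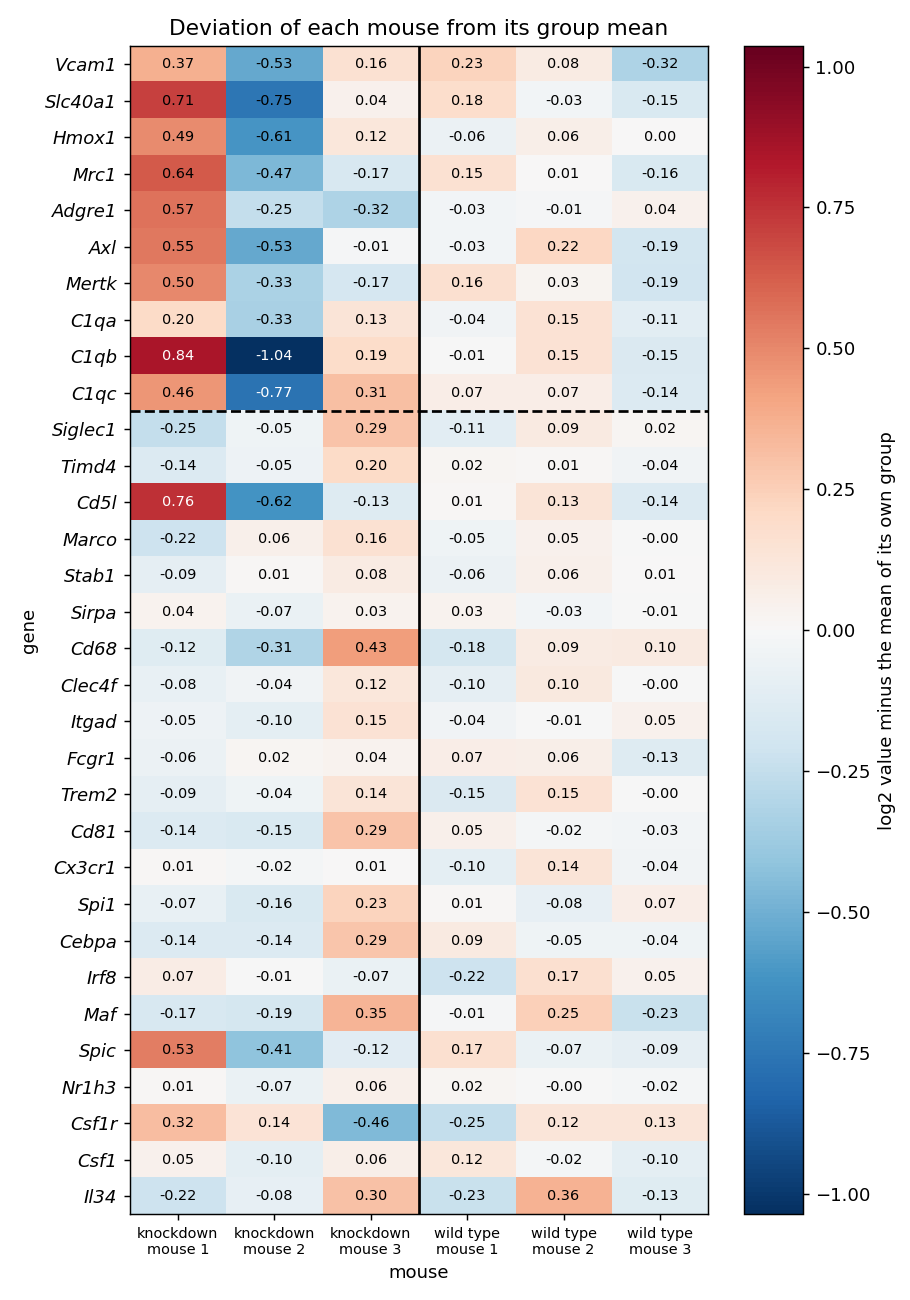
Log2 value minus the mean of the mouse's own group, for 3 MYB knockdown mice (left) and 3 wild type mice (right). Rows are the 10 macrophage genes and, below the dashed line, all 22 tested genes of the lists of other macrophage surface genes and transcription factors. Above the line knockdown mouse 1 is positive and knockdown mouse 2 negative in every row, to 0.84 and -1.04 in C1qb, and below it mouse 3 is highest in 16 of 22 rows.

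The genes with profiles most like Vcam1, by the root mean square difference of gene-centred log2 values over the 6 arrays, were Prom1 (0.25), Ncam1 (0.28), Olfml2b (0.30), Mgl2 (0.31) and Orm1 (0.31). Prom1 encodes the progenitor surface protein CD133, Ncam1 an adhesion molecule, and Mgl2 a galactose-binding lectin of macrophages and dendritic cells. All 5 had a smaller SD among knockdown mice than Vcam1 (0.06 for Ncam1 to 0.29 for Prom1, against 0.47). Mgl2 had 5.12, 5.20 and 5.41 in knockdown mice 1 to 3, and Orm1 had 5.37, 5.12 and 5.12. These values lie close to the mean of 5.11 below which genes were left out of the test. Ncam1 had 6.35, 6.23 and 6.24 in knockdown, against 9.18, 9.24 and 9.02 in wild type. Nearest to the mean of the C1q chains was Hmox1 (0.10), followed by Pilrb2 (0.17), Ngp (0.18), Pilrb1 (0.19) and Axl (0.20). Pilrb1 and Pilrb2 encode paired receptors and are close relatives, so their probes may share signal, and Ngp is a neutrophil granule protein. Likeness over 6 arrays of 2 groups is led by the group difference and is a description only.

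Other tissue macrophage surface genes went both ways. Of 18 measured, 5 were too dim to test (Cd163, Vsig4, Msr1, Folr2 and Lyve1), 3 rose and 1 fell, with a median difference of -0.07. Falls numbered 3 without knockdown mouse 3 and 0 without knockdown mouse 2 or any 1 wild type mouse, and rises 2 without knockdown mouse 2 or wild type mouse 1 or 3. Fcgr1, the high-affinity IgG receptor, rose by 0.76 ± 0.10 (SE, adjusted p = 0.00199), and Cd68, a lysosomal glycoprotein, rose by 1.23 ± 0.18 (adjusted p = 0.00402). Cx3cr1, the fractalkine receptor, rose by 0.49 ± 0.10 (adjusted p = 0.0194). Cd81, a tetraspanin, fell by 0.46 ± 0.12 (adjusted p = 0.0418). Siglec1, a sialic acid receptor of marrow macrophages, had 5.49, 5.69 and 6.03 in knockdown, against 6.12, 6.32 and 6.25 in wild type (adjusted p = 0.0637), and Timd4, a phosphatidylserine receptor, differed by -0.37 (adjusted p = 0.0566). The call of Cx3cr1 was lost without knockdown mouse 2 or wild type mouse 1 or 3 (adjusted p between 0.0674 and 0.113), and that of Cd81 without any 1 mouse but knockdown mouse 3 (between 0.0913 and 0.164). Of 9 tested transcription factors and CSF1 axis genes limma called 0, with 1 at an unadjusted p under 0.05, and 1 was called lower without knockdown mouse 1. Spic had the largest difference among them. Csf1r, the receptor macrophages need to survive, differed by 0.05 (adjusted p = 0.925).

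Ligands and partners of VCAM1 moved both ways. Of 17 adhesion genes tested, 2 rose and 2 fell (median -0.10), and 1 to 3 fell with 1 mouse left out. The VLA-4 chains that bind VCAM1 had no call: Itga4 differed by -0.10 (adjusted p = 0.464) and Itgb1 by -0.03 (adjusted p = 0.942). Itgb7, which pairs with the same alpha chain, rose by 1.23 ± 0.10 (adjusted p = 0.000267). Icam1, another endothelial and leukocyte adhesion receptor, rose by 0.74 ± 0.11 (adjusted p = 0.00316). Tnfrsf1b, a TNF receptor, fell by 0.66 ± 0.10 (adjusted p = 0.00367). Itgb2, the beta chain that pairs with CD11b and is part of LFA-1, fell by 0.60 ± 0.13 (adjusted p = 0.0236). The call of Itgb2 was lost without knockdown mouse 2 or any 1 wild type mouse (adjusted p between 0.0779 and 0.119).

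VCAM1 is also made by endothelial and stromal cells, and their markers gave this picture. Of 15 measured, 3 were too dim to test (Lepr, Kitl and Pdgfra), and 1 fell. The mean log2 level of the list was between 5.81 and 5.95 in knockdown mice and between 5.85 and 5.94 in wild type mice. Cdh5, VE-cadherin, differed by 0.16 (adjusted p = 0.491) and Pecam1 by -0.02 (adjusted p = 0.967). The gene that fell was Emcn, endomucin, also found on stem cells, by 0.73 ± 0.17 (adjusted p = 0.0321), a call lost without knockdown mouse 1 or wild type mouse 1 or 3 (adjusted p between 0.0715 and 0.142).

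Around Slc40a1 and Hmox1, 19 further genes of haem and iron handling were tested, of which 2 rose and 0 fell by limma (median 0.10), and 3 were higher and 2 lower at an unadjusted p under 0.05. The ferritin chains Fth1 and Ftl1, which store iron, differed by 0.11 (adjusted p = 0.211) and 0.05 (adjusted p = 0.701). Nqo1, a quinone reductase that is, like Hmox1, a target of the factor NRF2, rose by 0.90 ± 0.13 (adjusted p = 0.00286). Its values were 7.01, 6.65 and 6.58 in knockdown, against 5.85, 5.84 and 5.85 in wild type. Flvcr1, a haem exporter, rose by 0.54 ± 0.13 (adjusted p = 0.0331), a call lost without any 1 mouse but knockdown mouse 3 (adjusted p between 0.0787 and 0.147). Without knockdown mouse 3 the list had 5 that rose and 2 that fell, and without any other 1 mouse 1 rose.

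The TAM ligands had no call. Gas6 differed by -0.03 (adjusted p = 0.9) and Pros1, protein S, by 0.61 (adjusted p = 0.0915). Tyro3, the third TAM receptor, differed by 0.15 (adjusted p = 0.499). Of 17 genes of this and other engulfment pathways, 2 rose and 2 fell (median 0.03). Dock1, an activator of RAC in engulfment, fell by 1.26 ± 0.23 (adjusted p = 0.0109), and Abca1, a lipid exporter, fell by 0.41 ± 0.10 (adjusted p = 0.0318). Mfge8, a bridge between dying cells and integrins, rose by 0.68 ± 0.14 (adjusted p = 0.019), and Scarb1, a lipoprotein receptor, by 0.49 ± 0.13 (adjusted p = 0.043). All 4 calls were lost without wild type mouse 1 or 2, and all but that of Dock1 also without wild type mouse 3 or knockdown mouse 2 (adjusted p between 0.0539 and 0.161 over these fits). Without knockdown mouse 3 the list had 5 that rose and 4 that fell.

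Of 16 tested genes of complement and its receptors, 3 rose and 3 fell (median 0.08). C5ar1, the receptor of C5a, fell by 1.72 ± 0.18 (adjusted p = 0.000693), and Cd93, a surface lectin of progenitors once described as a C1q receptor, by 0.66 ± 0.10 (adjusted p = 0.00495). C1ra, a protease that joins C1q in the C1 complex, rose by 0.57 ± 0.11 (adjusted p = 0.0119), while its partner C1s1 was too dim to test. Itgax, a chain of complement receptor 4, rose by 0.57 ± 0.11 (adjusted p = 0.0112). The calls of Itgax and C1ra were lost without wild type mouse 1 or 3, and that of Itgax also without wild type mouse 2 (adjusted p between 0.0569 and 0.0686). The count of rises was 1, 1 and 0 without wild type mouse 1, 2 and 3, and 5 without knockdown mouse 3.

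Of 4 tested relatives of Mrc1 and Adgre1, 2 fell (median -0.57). Ly75, an endocytic receptor of the mannose receptor family, fell by 1.81 ± 0.22 (adjusted p = 0.00142), with 6.90, 6.69 and 6.01 in knockdown, against 8.19, 8.55 and 8.29 in wild type. Adgre5, the leukocyte adhesion GPCR CD97, fell by 1.10 ± 0.20 (adjusted p = 0.0103), a call lost without wild type mouse 1 or 2 (adjusted p = 0.0524 and 0.0576). Adgre4 had 8.31, 6.81 and 7.18 in knockdown, against 7.14, 6.73 and 6.66 in wild type (adjusted p = 0.34), with knockdown mouse 1 highest as for Adgre1.

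**Figure D4:**
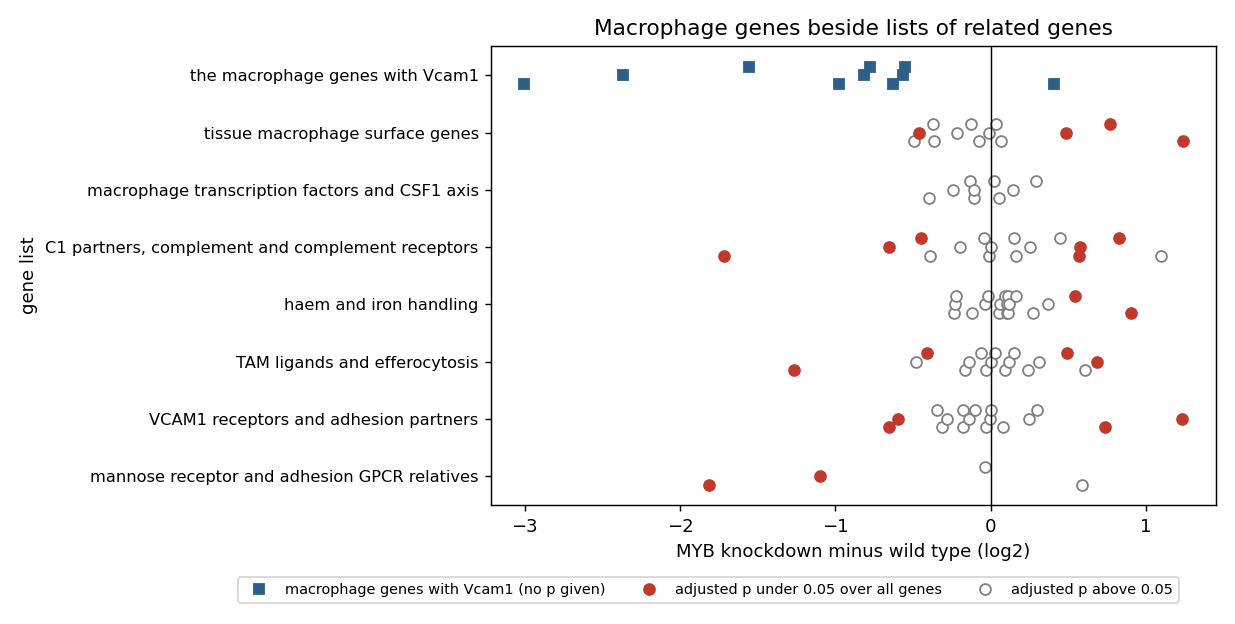
Difference of each gene, log2 units of MYB knockdown minus wild type, for the macrophage genes (blue squares, no p given) and for 7 lists of related genes. Filled red points passed the limma test over all genes and open points did not. The related lists centre near 0, apart from the short list of relatives of Mrc1 and Adgre1, where Ly75 (-1.81) and Adgre5 (-1.10) fell.

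Markers of other cells of the marrow moved beside the macrophage genes, and their part in the differences was not tested. Of 9 neutrophil genes 6 fell, with a mean log2 level between 9.46 and 10.27 in knockdown and between 11.26 and 11.49 in wild type. The granule enzyme genes Elane and Mpo differed by -3.69 and -1.20, the calprotectin chain S100a8 by -1.45 and Camp by -3.36 (adjusted p at most 0.000794). Cxcr2, a chemokine receptor of the same list, went the other way by 0.61 without a call (adjusted p = 0.0504). It had 9.38, 9.14 and 8.71 in knockdown, against 8.50, 8.35 and 8.55 in wild type. Of 5 eosinophil genes 3 fell (6.12 to 6.87 in knockdown, 8.19 to 8.37 in wild type), and of 7 mast cell and basophil genes 4 fell and 2 rose (8.13 to 8.49 in knockdown, 8.99 to 9.46 in wild type). The eosinophil granule genes Epx and Prg2 differed by -4.14 and -2.63 and the eotaxin receptor Ccr3 by -1.28 (adjusted p at most 0.00381). The protease genes Mcpt8, Prss34 and Cpa3 differed by -3.31, -3.47 and -0.59, and Hdc, which makes histamine, by -1.76 (adjusted p at most 0.0103). Fcer1a and Gata2 were the 2 that rose, by 2.01 and 1.05 (adjusted p = 0.0224 and 0.0161). Ms4a2 differed by 0.01 (adjusted p = 0.986). The call of Cpa3 was lost without wild type mouse 1 (adjusted p = 0.064). Of 5 megakaryocyte genes 4 rose (8.68 to 8.77 in knockdown, 7.14 to 7.28 in wild type): Ppbp, Pf4, Gp9 and Itga2b differed by 3.50, 1.56, 1.15 and 1.02 (adjusted p at most 0.00292). Of 7 monocyte genes 2 fell and 1 rose (8.02 to 8.33 in knockdown, 8.57 to 8.68 in wild type), led by F13a1, coagulation factor XIII, which fell by 2.84 ± 0.34 (adjusted p = 0.00137). Mpeg1, a pore-forming protein of phagocytes, fell by 0.98 (adjusted p = 0.00194), and Ms4a4c rose by 0.62 (adjusted p = 0.0236). Of 8 tested dendritic cell genes 2 rose and 2 fell, with 9 measured at a mean of 6.73 to 6.83 in knockdown and 6.49 to 6.65 in wild type. Cd209a and Siglech, lectins of dendritic cells, differed by 1.64 and 0.98, and Xcr1 and Clec9a, receptors of cross-presenting ones, by -0.70 and -0.92 (adjusted p at most 0.0182). Of 5 tested B and plasma cell genes only Jchain, the joining chain of antibodies, had a call: it fell by 2.30 ± 0.25 (adjusted p = 0.000776). The 7 measured had a mean of 5.76 to 5.95 in knockdown and 6.22 to 6.67 in wild type. Limma called 0 of 7 erythroblast genes (6.60 to 7.66 in knockdown, 6.59 to 7.06 in wild type), with 3 higher at an unadjusted p under 0.05, and 0 of 2 tested T and NK genes, with 0 at that p. The largest differences in these lists were 0.84 for Gata1 (adjusted p = 0.0556) and 0.05 for Ncr1 (adjusted p = 0.928). Counts that moved by more than 1.5 times with 1 mouse left out were the following. Eosinophil falls were 5 without knockdown mouse 3. Mast cell and basophil rises were 0 without wild type mouse 2 or 3, and 1 with knockdown mouse 2 or wild type mouse 1 left out. Monocyte rises were 2 without knockdown mouse 3 and 0 without any 1 wild type mouse. Dendritic cell falls were 0 without knockdown mouse 2 or wild type mouse 2 or 3, and rises 1 without wild type mouse 1 or 2. Erythroblast rises were 1 without knockdown mouse 2 or 3.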

How the data were processed

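RNA was isolated with Trizol before hybridisation to whole-transcript arrays, per the labels' protocols. The authors deposited log2 values, 1 for each probe set on each array, ranging over 1.83 to 13.3. Affymetrix Expression Console and limma appear in the submitters' processing notes, and the normalization method is not given in the sources at hand. No scan date or batch is given. Having 6 arrays limits precision.

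Of 35556 probe sets, 21789 carried 1 symbol in the platform annotation, 1621 several and 12146 were not listed there. Probe sets with 1 symbol were used, the brightest per gene, and genes in the lowest 30% of means were left out. Knockdown was compared with wild type over 13956 genes in limma 3.58.1 (R 4.3.3, lmFit, eBayes with trend), with Benjamini-Hochberg adjustment and a threshold of 0.05. Adjusted p-values are from that fit, or from the alternative named beside them. The fit was tested on simulated data. Names were checked against RefSeq (GRCm38.p6). The mice are labelled as separate animals, and a mouse number shared between the groups names different mice. Deviations of same-numbered mice correlated at 0.29, -0.19 and -0.08. These correlations cannot show whether same-numbered mice shared a batch, and the labels name none.

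The macrophage genes and all lists were chosen with earlier results of these data known. From each list up to 4 called genes of smallest p are named, or the gene of largest difference where none was called, with further genes that define a cell type or pair with a macrophage gene, and the 5 nearest in profile to Vcam1 and to the C1q mean. Some genes of these lists are not analysed here. Alternatives were a replicate block, each mouse left out, quantile normalization, median centring, other filters, the mean of probe sets, other eBayes settings, array weights and a threshold of 0.1.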

Additional observations from a re-analysis of the deposited data

How the results depend on the processing

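Over all genes 1619 were called, 854 higher and 765 lower. With 1 mouse left out the count lay between 663 and 3794, the rises between 296 and 2397 and the falls between 367 and 1397. Median centring gave 1433 rises beside 593 falls, so the split depends on the scaling. Array weights, whose estimate stopped before its tolerance was met, gave 3912 calls, 2351 higher and 1561 lower. At an adjusted p under 0.1 there were 1374 rises. With the mouse number as a replicate block 1472 genes were called, 746 higher and 726 lower. The block lost the calls of Abca1 (adjusted p = 0.0691) and Cfp (0.0633), and the same 5 macrophage genes stood among the calls. That number was 4 after quantile normalization, after median centring, without a filter or without the trend, each without Mertk, 3 of 8 tested when the lowest 50% were left out, and 9 with array weights. Differences that moved by more than 1.5 times with 1 mouse left out were those of C1qb (2.73 times), C1qc (2.58) and Hmox1 (2.18) without knockdown mouse 2, and of Adgre1 (3.29) and C1qb (1.52) without knockdown mouse 1. Among counts of list members, 422 of 510 recomputations stayed within 1.5 times. Having 3 mice a group limits what can be seen, as does signal near the floor of tested genes for Mrc1, Mertk, Timd4, Cd5l, Mgl2 and Orm1.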

Other observations

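The order of knockdown mice seen in the macrophage genes, mouse 1 above 3 above 2 with a span of at least 0.5, was shared by 92 genes, 9 of them macrophage genes described above. Of the 92, 34 were called lower and 9 higher between the groups. Over all genes tested 5.48% were called lower and 6.12% higher, and the shares among all genes of such a span were not computed. The 34 include Vcam1, Slc40a1, Mrc1, Axl and Mertk, which were chosen by knowledge of this comparison. Nothing is read from these counts. The widest span was that of Ptgs2, cyclooxygenase 2, with 8.14, 6.22 and 6.99 in knockdown mice 1 to 3, against 6.15, 5.55 and 5.94 in wild type mice. Camp, the cathelicidin of neutrophil granules, was at rank 5 by span. It had 9.74, 8.03 and 8.49 in knockdown, against 12.12, 12.18 and 12.05 in wild type. The eosinophil granule genes Prg2 and Epx were at ranks 9 and 11. Treml4, a receptor that binds dead cells, was at rank 13. Its values were 7.10, 5.91 and 6.02 in knockdown, against 7.08, 7.19 and 7.17 in wild type. Ccl3, a chemokine at rank 19, had 10.15, 9.05 and 9.69 in knockdown, against 10.14, 8.70 and 8.93 in wild type. These genes were picked after their values were seen. No test bears on what the shared order comes from.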
